A study of Homo sapiens with 12 samples.

Results

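CDKN1A, MDM2, TIGAR, BBC3, PMAIP1, SESN1, GADD45A, ZMAT3, TP53INP1 and BTG2 are transcriptional targets of the tumour suppressor p53. They were picked by symbol from the gene-level tables of an RNA sequencing study, where each matched 1 of 62588 Ensembl gene IDs, and all 10 passed the filter on low counts. The cells were THP-1, a human line established from a monocytic leukemia, in 12 libraries of oligo(dT)-selected RNA that form 4 groups of 3. The groups were cells given chlorquinaldol at 50 µM for 8 h, cells given chlorquinaldol at 20 µM for 8 h, cells given the cyclic dinucleotide 3'-3'-cGAMP at 1 µg/mL for 8 h, and untreated cells. Chlorquinaldol is a chlorinated hydroxyquinoline antiseptic of a class that binds metal ions, and 3'-3'-cGAMP activates STING, the adaptor of cytosolic DNA sensing. No vehicle or culture time is given for the untreated cells, and the labels do not say whether replicates came from separate cultures, so p-values measure the spread between these samples, which may be technical.

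p53 is a transcription factor that is stabilised after DNA damage and other stress, binds response elements near its targets and switches on genes of arrest, repair, death and metabolism. MDM2 is both a target and the ubiquitin ligase that degrades p53, which closes a negative feedback loop. THP-1 cells are known to lack working p53, and several of the genes, CDKN1A, PMAIP1, GADD45A and BTG2 among them, are also known to be controlled by other stress-responsive factors. Which regulator acted in these cells was not measured.

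The libraries held 18973330 to 19180594 gene-assigned estimated counts at 50 µM, 17588491 to 18891151 at 20 µM, 18859728 to 18938303 with cGAMP and 18861885 to 18984026 in untreated cells. Within groups, libraries correlated at 0.986 to 0.991 over log2 CPM. The cell type label was checked against markers. The 8 monocyte markers summed to 1244 to 1491 CPM at 50 µM, 1114 to 1241 CPM at 20 µM, 1434 to 1602 CPM with cGAMP and 1230 to 1282 CPM in untreated cells. Single monocyte markers moved both ways under these sums. LYZ averaged 217 CPM at 50 µM and 472 CPM in untreated cells, and ITGAM 184.5 and 59.9 CPM. All 4 epithelial, 3 fibroblast and 3 erythroid markers stayed under 1 CPM in every library. So did 4 of 5 T and NK cell markers and 2 of 3 B cell markers, and the sums of these 2 lists were at most 15.8 and 7.19 CPM.

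The promoters of the members were compared first. RefSeq promoter sequences (GRCh38.p14) matched 8 of the 10 genes, all but GADD45A and TP53INP1. The 250 bases before each start were searched on both strands. Shown here are the sequences of 4 genes that rose at both drug doses: CDKN1A and BTG2, which had the largest increases at 50 µM, and PMAIP1 and BBC3, the pair of BH3-only death genes. Each runs 5′ to 3′ and stops before the first base of the window that lies in an annotated exon of the gene. The CDKN1A stretch lies inside the annotated gene, downstream of its start at chr6:36676460. The ZMAT3 window, not shown, also lies inside its annotated gene and begins within an exon, so its matches may be in transcribed sequence. CDKN1A is given for chr6:36678464-36678657 (+), BTG2 for chr1:203305269-203305490 (+), PMAIP1 for chr18:59899746-59899947 (+) and BBC3 for chr19:47232767-47232917 (−). Capitals mark matches to the GC box GGGCGG, the hypoxia response cores ACGTG and GCGTG, the metal response core TGCGCNC and the AP-1 element TGANTCA, in either orientation.
CDKN1A: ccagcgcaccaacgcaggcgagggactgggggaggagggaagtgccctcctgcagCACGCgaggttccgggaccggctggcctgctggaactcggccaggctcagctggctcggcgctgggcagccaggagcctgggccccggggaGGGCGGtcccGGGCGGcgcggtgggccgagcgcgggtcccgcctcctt
BTG2: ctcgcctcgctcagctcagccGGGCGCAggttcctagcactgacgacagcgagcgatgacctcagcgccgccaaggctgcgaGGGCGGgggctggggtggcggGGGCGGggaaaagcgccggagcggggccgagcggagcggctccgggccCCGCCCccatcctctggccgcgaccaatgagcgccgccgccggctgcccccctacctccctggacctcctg
PMAIP1: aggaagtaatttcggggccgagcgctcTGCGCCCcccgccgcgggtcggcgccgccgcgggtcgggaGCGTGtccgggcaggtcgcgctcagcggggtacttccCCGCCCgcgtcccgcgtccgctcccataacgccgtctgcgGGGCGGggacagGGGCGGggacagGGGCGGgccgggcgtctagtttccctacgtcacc
BBC3: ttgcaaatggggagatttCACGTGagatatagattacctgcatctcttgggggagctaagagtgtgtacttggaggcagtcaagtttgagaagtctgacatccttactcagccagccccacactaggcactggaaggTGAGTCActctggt

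The GC box, the binding motif of Sp1, was found in 6 of the 8 promoters (CDKN1A, TIGAR, PMAIP1, SESN1, ZMAT3 and BTG2) and in 42.6% of all 35116 promoters searched. BBC3 had no GC box match and held the AP-1 element, which 6.57% of all promoters held. The hypoxia cores ACGTG and GCGTG overlap E-box sequences. ACGTG stood in TIGAR and BBC3 (18.5% of all promoters) and GCGTG in CDKN1A, PMAIP1 and ZMAT3 (32.2%). The metal response core TGCGCNC was in MDM2, TIGAR, PMAIP1, ZMAT3 and BTG2 (16.8%). No member matched the p53 half-site (5.57% of all promoters), the cyclic AMP response element TGACGTCA (1.65%), the C/EBP-ATF element TGATGCAAT (0.216%), an interferon response element with a variable spacer (3.02%) or the metal response core TGCACNC (9.87%) in this window. A match describes letters in 1 window and a missing match says nothing about binding elsewhere, since the known p53 elements of several of these genes lie further away.

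At 50 µM chlorquinaldol, 8 of the 10 genes were higher and 2 were lower than in untreated cells. The cell cycle inhibitor CDKN1A was 8.47-fold higher, the antiproliferative BTG2 3.86-fold, the death gene PMAIP1 2.55-fold, the mTORC1 inhibitor SESN1 2.46-fold and the arrest gene GADD45A 2.33-fold. BBC3, TP53INP1 and MDM2 were 1.84-fold, 1.66-fold and 1.56-fold higher, while ZMAT3 and TIGAR were 2.08-fold and 2.03-fold lower. At 20 µM, 7 of 10 were higher and 2 lower. With cGAMP, CDKN1A and PMAIP1 were higher, SESN1 and TP53INP1 were lower and 6 genes did not pass the test. These calls are at an adjusted p below 0.05 in edgeR's quasi-likelihood test, corrected by Benjamini and Hochberg over 16628 genes.

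These shares have to be read against a broad response. Of all genes tested, 66.9% were called at 50 µM against untreated cells (32.2% higher and 34.7% lower), 55.1% at 20 µM (27.1% higher and 28.0% lower) and 23.3% with cGAMP (11.6% higher and 11.8% lower). The called share of the 10 genes, all of them at 50 µM, 9 at 20 µM and 4 with cGAMP, is thus compared with a background in which a call was common. The lean towards increases at 50 µM shows in the median log2 change of 1.05 for the 10 genes and −0.03 for all genes. At 20 µM the medians were 0.65 and 0.00, and with cGAMP −0.22 and −0.05. The 3 comparisons share the same 3 untreated libraries, so they are not independent of each other. The 10 genes were chosen with results of these data known, and the counts describe them only.

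**Figure D1:**
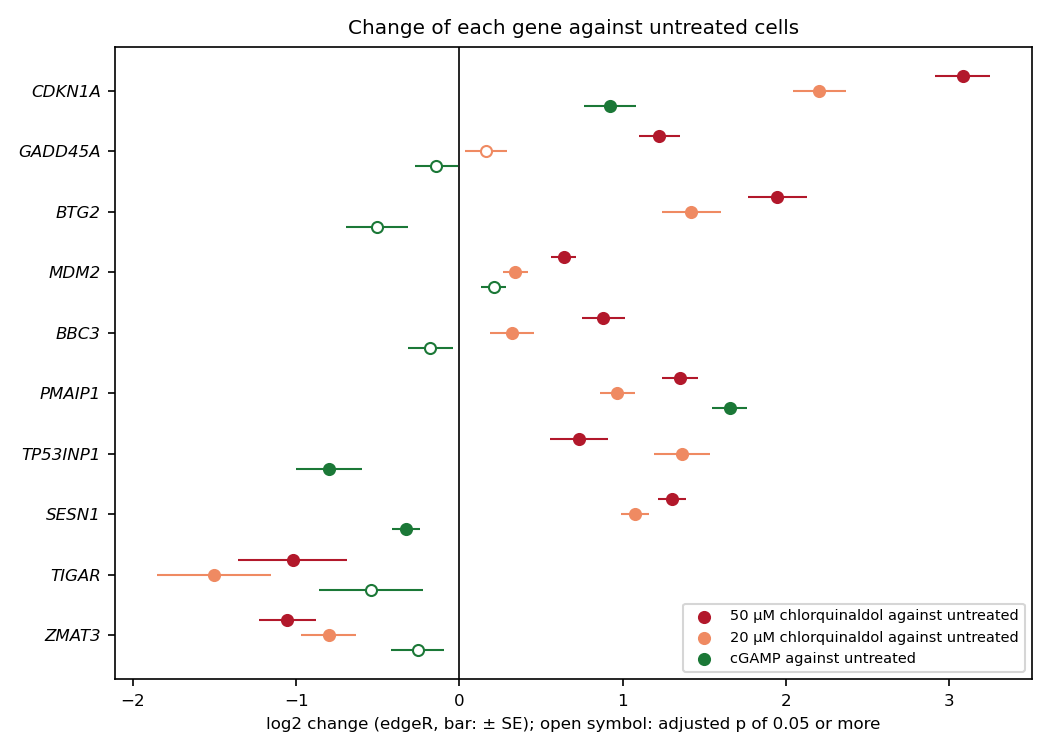
Log2 change (x axis, edgeR, ± SE) of each of the 10 genes (rows) at 50 µM chlorquinaldol, 20 µM chlorquinaldol and with cGAMP, each against untreated cells (n = 3 libraries a group). Filled symbols passed an adjusted p of 0.05; CDKN1A lies farthest right at 3.08, and SESN1 and TP53INP1 lie right of 0 with the drug and left of 0 with cGAMP.

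CDKN1A (ENSG00000124762, chr6:36676460-36687339, + strand) encodes p21, which binds and inhibits cyclin-CDK complexes and holds cells in G1. Its level was 766, 880.1 and 712 CPM at 50 µM, 554, 405 and 324 CPM at 20 µM, 152, 173 and 204 CPM with cGAMP, and 82.1, 91.8 and 105 CPM in untreated cells. The 4 groups did not overlap, and even the lowest cGAMP library was above the highest untreated one. The log2 change against untreated cells was 3.08 ± 0.17 (SE) at 50 µM (edgeR adjusted p = 5.89e-11) and 2.20 ± 0.16 at 20 µM, 4.61-fold (edgeR adjusted p = 8.83e-09). With cGAMP it was 0.92 ± 0.16, 1.90-fold (edgeR adjusted p = 0.0004). Ranked by log2 change, CDKN1A was gene 363 of 16628 at 50 µM, 316 at 20 µM and 829 with cGAMP, which leaves many genes with a larger increase in each comparison. DINOL, a lncRNA on the opposite strand, shares 146 exon bases with CDKN1A but had 18 counts in all libraries together.

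GADD45A (ENSG00000116717, chr1:67685061-67688338, + strand) encodes a stress protein that binds PCNA and activates MAP kinase signalling. Its level was 62.6, 79.9 and 59.5 CPM at 50 µM, 39.3, 31.4 and 26.1 CPM at 20 µM, 26.4, 26.1 and 25.9 CPM with cGAMP, and 29.5, 28.9 and 28.2 CPM in untreated cells. The 50 µM libraries stood above all others, and the 20 µM libraries overlapped those of untreated cells. The log2 change against untreated cells was 1.22 ± 0.13 at 50 µM (edgeR adjusted p = 1.57e-07) but 0.16 ± 0.13 at 20 µM, with a 95% interval of −0.11 to 0.43 (edgeR adjusted p = 0.302). Without replicate 3 of the 20 µM group, the lowest, the 20 µM change was 0.34 and passed (edgeR adjusted p = 0.0267). The cGAMP change was −0.14 ± 0.13 (edgeR adjusted p = 0.471).

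BTG2 (ENSG00000159388, chr1:203305491-203309602, + strand) belongs to the antiproliferative BTG/TOB family and promotes the shortening of mRNA poly(A) tails. Its level was 209.5, 168 and 112 CPM at 50 µM, 129, 117 and 93.7 CPM at 20 µM, 28.4, 29.5 and 31.3 CPM with cGAMP, and 34.9, 39.9 and 52.0 CPM in untreated cells. Every drug library was above every untreated library, and every cGAMP library was below them. The 50 µM libraries of BTG2 were spread widely, at 163 ± 49.0 CPM (SD, n = 3). Against untreated cells BTG2 rose by a log2 value of 1.95 ± 0.18 at 50 µM (edgeR adjusted p = 5.10e-08) and 1.42 ± 0.18 at 20 µM, 2.67-fold (edgeR adjusted p = 4.50e-06). With cGAMP it was −0.51 ± 0.19 and missed the threshold (edgeR adjusted p = 0.0617), which it passed in 5 alternative settings.

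MDM2 (ENSG00000135679, chr12:68808176-68850686, + strand), the p53 ubiquitin ligase, moved least among the genes that rose at 50 µM. Its level was 148, 137 and 135 CPM at 50 µM, 124, 109 and 108 CPM at 20 µM, 106, 100.4 and 105 CPM with cGAMP, and 87.2, 88.8 and 93.6 CPM in untreated cells. No library of a treated group lay within the untreated range. Its log2 change was 0.64 ± 0.08 at 50 µM (edgeR adjusted p = 8.92e-07), 0.34 ± 0.08 at 20 µM, 1.27-fold (edgeR adjusted p = 0.00102), and 0.21 ± 0.08 with cGAMP (edgeR adjusted p = 0.0566). The cGAMP change passed with DESeq2 (adjusted p = 0.0271) and without cGAMP replicate 2 (edgeR adjusted p = 0.0371). It also passed with RLE scaling (edgeR adjusted p = 0.0436), with the filter of 5 CPM in 3 libraries (0.045) and in a fit of just the groups compared (0.00684). MDM2 shares 439 exon bases on its own strand with the pseudogene AC025423.2, which had 577 counts against 25147 for MDM2, and 133 bases with CPM, a gene on the opposite strand. The gene CPM had 7615 counts in all libraries together, with 1184 to 1319 in each untreated library and 110 to 170 in each 50 µM library. The strand of counting is not given, and an effect of this overlap on MDM2 was not tested.

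BBC3 and PMAIP1 encode PUMA and NOXA, BH3-only proteins that neutralise BCL2 family survival proteins and so promote mitochondrial apoptosis. BBC3 (ENSG00000105327, chr19:47220822-47232766, − strand) had 15.9, 16.1 and 13.1 CPM at 50 µM, 12.2, 9.16 and 9.20 CPM at 20 µM, 6.78, 6.84 and 8.01 CPM with cGAMP, and 8.09, 8.35 and 8.02 CPM in untreated cells. All drug libraries were above the untreated ones and all cGAMP libraries below them, the highest of these by very little. The log2 change was 0.88 ± 0.13 at 50 µM (edgeR adjusted p = 1.10e-05) and −0.18 ± 0.14 with cGAMP (edgeR adjusted p = 0.378). At 20 µM it was 0.32 ± 0.13 (edgeR adjusted p = 0.0477), a call that was lost with DESeq2 (adjusted p = 0.0579), on FPKM values, without replicate 1 of the 20 µM group (edgeR adjusted p = 0.169) and without any 1 of the 3 untreated libraries.

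PMAIP1 (ENSG00000141682, chr18:59899948-59904306, + strand) was the member most raised by cGAMP. Its level was 60.9, 70.3 and 81.4 CPM at 50 µM, 55.2, 56.5 and 51.4 CPM at 20 µM, 87.1, 84.9 and 90.4 CPM with cGAMP, and 23.9, 28.03 and 31.5 CPM in untreated cells. Each treated group lay wholly above the untreated one, and the cGAMP libraries were the highest of the 12. Relative to untreated cells the log2 change of PMAIP1 was 1.35 ± 0.11 at 50 µM (edgeR adjusted p = 6.41e-09), 0.97 ± 0.11 at 20 µM, 1.96-fold (edgeR adjusted p = 9.31e-07), and 1.65 ± 0.11 with cGAMP, 3.15-fold (edgeR adjusted p = 2.14e-09). With cGAMP it ranked 368 of 16628 genes by log2 change, ahead of CDKN1A.

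TP53INP1 (ENSG00000164938, chromosome 8, − strand) encodes a p53-induced nuclear protein that takes part in death and autophagy. Its level was 5.92, 5.15 and 6.57 CPM at 50 µM, 10.4, 7.91 and 9.05 CPM at 20 µM, 2.64, 1.55 and 1.91 CPM with cGAMP, and 3.47, 3.13 and 4.04 CPM in untreated cells. The groups did not overlap, and the order was unlike that of any other member: 20 µM highest, then 50 µM, untreated and cGAMP. The log2 change was 0.73 ± 0.18 at 50 µM (edgeR adjusted p = 0.00152), 1.36 ± 0.17 at 20 µM, 2.57-fold (edgeR adjusted p = 3.35e-06), and −0.80 ± 0.20 with cGAMP, 1.74-fold lower (edgeR adjusted p = 0.00836). The 50 µM call was lost on log2(FPKM + 0.1) (0.53, limma adjusted p = 0.0531) and on unfiltered FPKM (0.27, limma adjusted p = 0.135). The decrease with cGAMP rested on 115 counts over 3 libraries and lost its call without cGAMP replicate 2 (edgeR adjusted p = 0.0777).

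SESN1 (ENSG00000080546, chr6:108986437-109094819, − strand) encodes sestrin 1, which lowers mTORC1 activity and oxidative stress. Its level was 75.5, 81.0 and 86.6 CPM at 50 µM, 72.4, 73.1 and 62.5 CPM at 20 µM, 27.02, 25.7 and 25.9 CPM with cGAMP, and 34.1, 30.4 and 34.2 CPM in untreated cells. Both drug groups were far above the untreated range, while the cGAMP libraries were all under it. SESN1 changed by a log2 value of 1.30 ± 0.09 at 50 µM (edgeR adjusted p = 4.74e-10), 1.08 ± 0.09 at 20 µM, 2.11-fold (edgeR adjusted p = 1.84e-08), and −0.33 ± 0.09 with cGAMP, 1.25-fold lower (edgeR adjusted p = 0.0118). The cGAMP call was lost without cGAMP replicate 2 (edgeR adjusted p = 0.109), untreated replicate 1 (0.0551) or untreated replicate 3 (0.0501). An antisense gene, AL390208.1, shares 363 exon bases with SESN1 but had 52.2 counts against 11718.

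**Figure D2:**
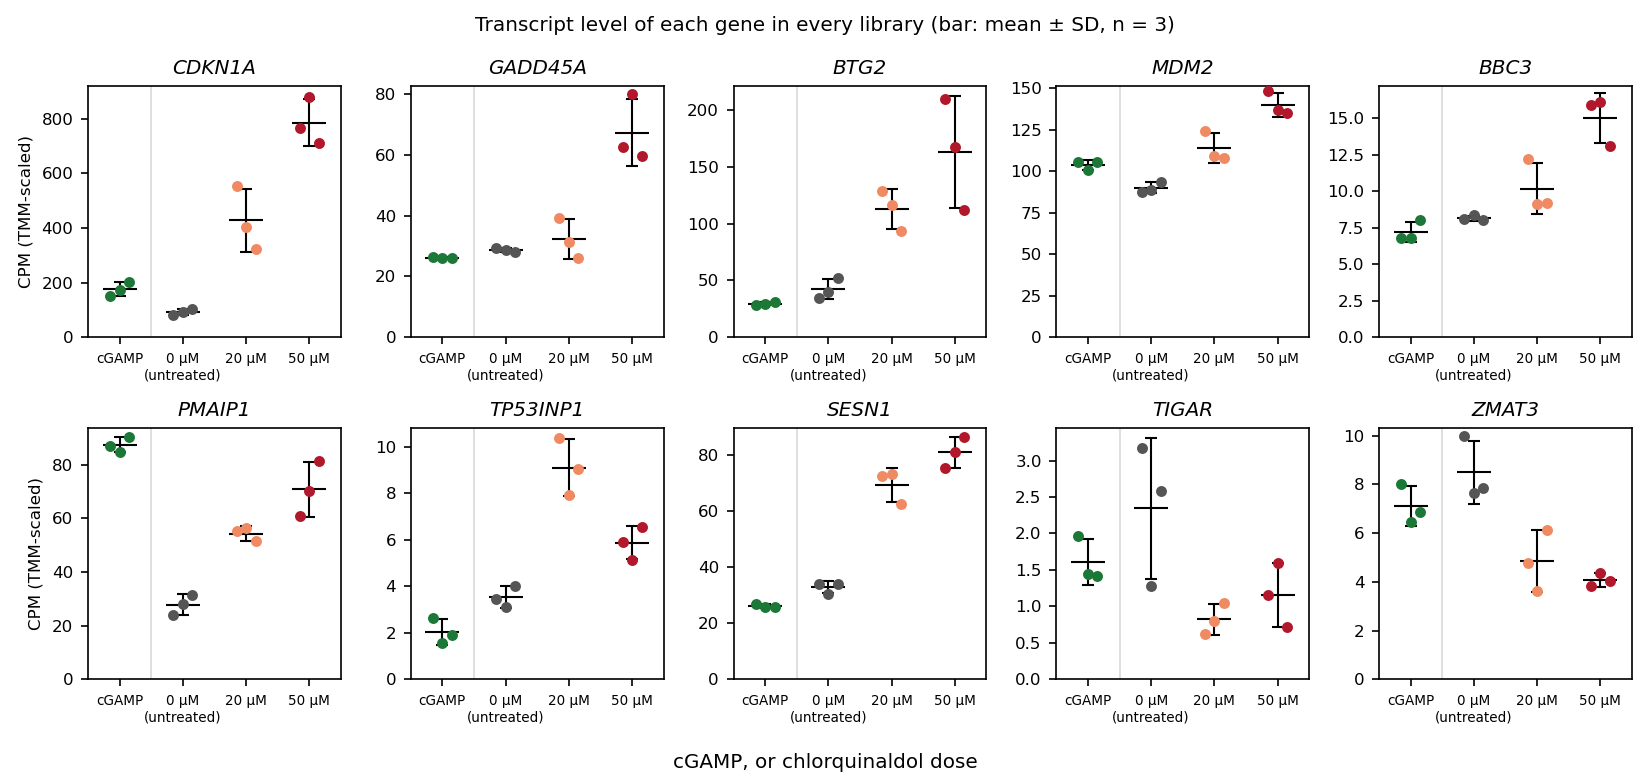
Level of each gene (y axis, TMM-scaled CPM, each panel with its own scale from 0) in cells given cGAMP and, right of the grey line, at 0, 20 and 50 µM chlorquinaldol. Points are libraries and bars the mean ± SD (n = 3); CDKN1A climbs to 712 to 880.1 CPM at 50 µM, PMAIP1 peaks with cGAMP and TP53INP1 at 20 µM.

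ZMAT3 (ENSG00000172667, chr3:179017223-179072279, − strand), a zinc finger protein that binds RNA, was lower in drug-treated cells, as TIGAR was in the test on counts. Its level was 3.83, 4.39 and 4.05 CPM at 50 µM, 4.78, 3.64 and 6.15 CPM at 20 µM, 8.02, 6.46 and 6.86 CPM with cGAMP, and 9.999, 7.64 and 7.87 CPM in untreated cells. In CPM, all 6 drug libraries were below all untreated ones. In FPKM, replicate 3 of the 20 µM group (0.99) was just above untreated replicate 3 (0.98). In log2 terms the change was −1.05 ± 0.17 at 50 µM (edgeR adjusted p = 3.81e-05), −0.80 ± 0.17 at 20 µM, 1.74-fold lower (edgeR adjusted p = 6.46e-04), and −0.26 ± 0.16 with cGAMP (edgeR adjusted p = 0.278). The 20 µM call was lost on unfiltered FPKM (−0.347, limma adjusted p = 0.139). As RNA from bulk cultures, a lower level can come from fewer cells of a type or from less RNA per cell, which cannot be told apart.

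TIGAR (ENSG00000078237, chr12:4307763-4354593, + strand) encodes a phosphatase that lowers fructose 2,6-bisphosphate and turns sugar from glycolysis towards the pentose phosphate pathway. Its level was 1.16, 1.59 and 0.712 CPM at 50 µM, 0.616, 0.797 and 1.05 CPM at 20 µM, 1.97, 1.44 and 1.42 CPM with cGAMP, and 3.17, 1.28 and 2.59 CPM in untreated cells. The 20 µM libraries were below all untreated libraries, whereas the 50 µM and cGAMP libraries overlapped them. The log2 change was −1.02 ± 0.33 at 50 µM (edgeR adjusted p = 0.0122), −1.50 ± 0.35 at 20 µM (edgeR adjusted p = 0.00144) and −0.54 ± 0.32 with cGAMP (edgeR adjusted p = 0.236). The decrease rests on few reads, 62.1 estimated counts at 50 µM, 47.5 at 20 µM, 90.8 with cGAMP and 137 in untreated cells over 3 libraries each. At 50 µM it lost its call without replicate 3 of that group (edgeR adjusted p = 0.0904) or without untreated replicate 1 (edgeR adjusted p = 0.0851).

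The deposited FPKM did not show the lower TIGAR level clearly. They averaged 0.927 ± 0.289 at 50 µM, 0.747 ± 0.333 at 20 µM, 1.10 ± 0.575 with cGAMP and 1.09 ± 0.706 in untreated cells (SD, n = 3). On log2(FPKM + 1), which understates changes of low genes, the 50 µM change was −0.07 (limma adjusted p = 0.823). On log2(FPKM + 0.1), which understates them less, it was −0.04 (limma adjusted p = 0.953). The 20 µM change was −0.22 on log2(FPKM + 1) (limma adjusted p = 0.508) and −0.37 on log2(FPKM + 0.1) (limma adjusted p = 0.587). FPKM depend on the effective length of the transcripts that reads were assigned to, which CPM do not. TIGAR also shares 1711 exon bases on the same strand with AC008012.1, an entry annotated as protein-coding that had 220.2 counts against 338 for TIGAR. AC008012.1 was given 18.7, 12.2 and 23.02 counts at 50 µM, 17.3, 10.1 and 11.4 at 20 µM, 32.8, 39.99 and 11.98 with cGAMP, and 8.33, 29.8 and 4.70 in untreated cells. In untreated cells, the library with the fewest TIGAR counts had the most AC008012.1 counts. Since RSEM divides shared reads between entries by estimation, the TIGAR values are uncertain.

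**Figure D3:**
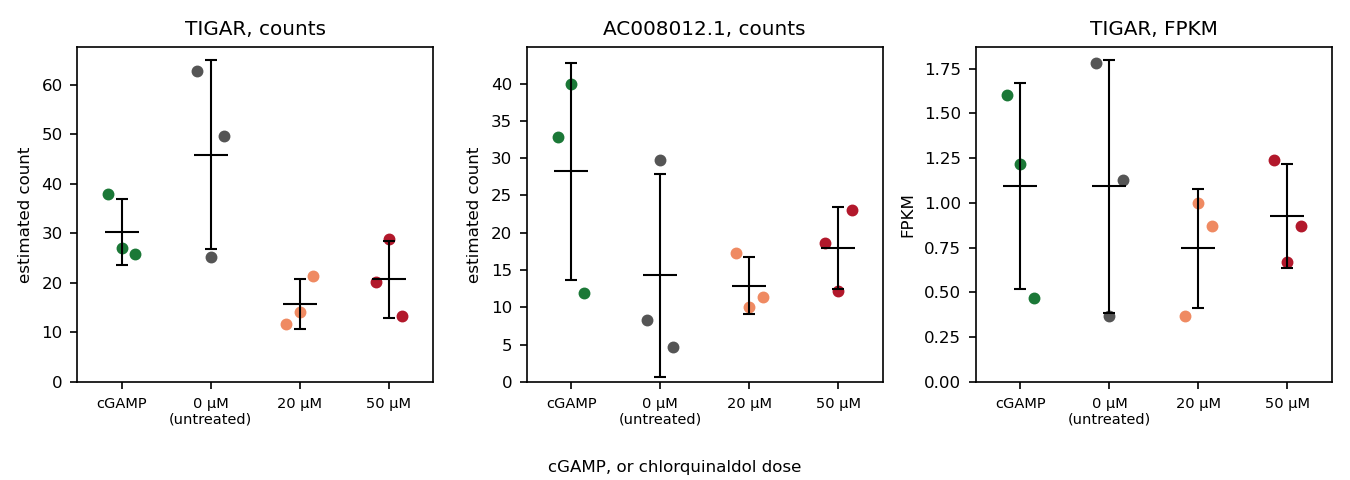
Estimated counts of TIGAR (left), estimated counts of AC008012.1, which overlaps it on the same strand (middle), and the deposited FPKM of TIGAR (right), with cGAMP and at 0, 20 and 50 µM chlorquinaldol. Points are libraries and bars the mean ± SD (n = 3); untreated counts of TIGAR run from 25.2 to 62.7, and the FPKM of the 4 groups overlap.

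Levels of different genes can be compared per transcript length in the deposited FPKM. CDKN1A was the most abundant member in each group, with mean FPKM of 397 at 50 µM, 236 at 20 µM, 93.6 with cGAMP and 51.8 in untreated cells. In untreated cells it was followed by GADD45A (27.8), MDM2 (24.3), PMAIP1 (18.01), BTG2 (17.6), SESN1 (13.3) and BBC3 (7.75), and ZMAT3 (1.15), TIGAR (1.09) and TP53INP1 (0.680) were scarce. PMAIP1 and BTG2 are neighbours whose libraries overlapped there, at 15.6 to 20.0 and 14.9 to 21.3 FPKM. MDM2 and GADD45A overlapped as well, at 20.9 to 27.2 and 26.5 to 28.7 FPKM. At 50 µM, BTG2 (60.9) and GADD45A (58.1) came next, with overlapping libraries, and means of PMAIP1 (42.2), MDM2 (39.1) and SESN1 (31.0) followed. PMAIP1 libraries, at 34.5 to 50.2 FPKM, overlapped both those of BTG2, at 43.2 to 75.7, and those of MDM2, at 35.2 to 42.7. With cGAMP, PMAIP1 (53.4) was second.

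The dose step was tested directly, 50 µM against 20 µM. Of the 10 genes 7 were higher and 1 was lower at 50 µM, while 38.1% of all genes were called (19.1% higher and 19.0% lower), and the median log2 difference was 0.43 for the 10 genes and −0.02 for all genes. GADD45A differed most, by a log2 value of 1.06 ± 0.13 or 2.09-fold (edgeR adjusted p = 4.91e-06). CDKN1A followed with 0.88 ± 0.16, 1.84-fold (edgeR adjusted p = 2.71e-04), then BBC3 with 0.56 ± 0.13 (edgeR adjusted p = 0.00222). BTG2 differed by 0.53 ± 0.18 (edgeR adjusted p = 0.0240), PMAIP1 by 0.38 ± 0.10 (0.00756), MDM2 by 0.30 ± 0.08 (0.00474) and SESN1 by 0.23 ± 0.08 (0.0377). TP53INP1 was 1.55-fold lower at 50 µM, by −0.63 ± 0.16 (edgeR adjusted p = 0.00520). For ZMAT3 the difference was −0.25 ± 0.18 (95% interval −0.64 to 0.13) and for TIGAR 0.48 ± 0.39 (−0.33 to 1.30), so no dose step was detectable for either, and these intervals are wide.

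Some dose steps did not hold in other settings. On FPKM values, 3 of the 10 genes were called (CDKN1A, GADD45A and TP53INP1) in place of 8, and all genes leaned towards decreases, with 1750 higher and 3737 lower on log2(FPKM + 0.1), compared with 3168 higher and 3159 lower on counts. The BTG2 step, whose libraries overlapped, lost its call without replicate 1 of the 50 µM group (edgeR adjusted p = 0.127), replicate 2 of that group (0.0557) or replicate 3 of the 20 µM group (0.0991). The SESN1 step lost its call without replicate 2 (0.0578) or 3 (0.0983) of the 50 µM group or replicate 3 of the 20 µM group (0.142). It was also lost with upper-quartile scaling (edgeR adjusted p = 0.097), with no filter (0.0549) and in a fit of just the groups in question (0.0914). Within the 20 µM group, replicate 1 was the highest library for CDKN1A, MDM2, BBC3, GADD45A, BTG2 and TP53INP1, and replicate 3 was the lowest for CDKN1A, MDM2, PMAIP1, SESN1, GADD45A and BTG2.

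Drug and cGAMP were compared directly as well. At 50 µM, 7 genes were higher than with cGAMP, PMAIP1 and ZMAT3 were lower and TIGAR did not pass, where 66.7% of all genes were called (32.0% higher and 34.7% lower). BTG2 differed most, 5.48-fold (log2 2.45 ± 0.19, edgeR adjusted p = 3.95e-09), then CDKN1A, 4.46-fold (2.16 ± 0.16, edgeR adjusted p = 2.77e-09). SESN1 was 3.09-fold and TP53INP1 2.88-fold higher at 50 µM, with log2 differences of 1.63 ± 0.09 (edgeR adjusted p = 3.70e-11) and 1.53 ± 0.19 (edgeR adjusted p = 1.90e-06). PMAIP1 was 1.23-fold lower at 50 µM than with cGAMP, by −0.30 ± 0.10 (edgeR adjusted p = 0.0148), and without replicate 1 of the 50 µM group this was −0.18 (edgeR adjusted p = 0.137). At 20 µM, 5 genes were higher than with cGAMP (CDKN1A, BBC3, SESN1, TP53INP1 and BTG2) and 3 were lower (PMAIP1, ZMAT3 and TIGAR), with 55.6% of all genes called (27.6% higher and 28.0% lower). TP53INP1 led there at 4.47-fold (2.16 ± 0.19, edgeR adjusted p = 3.45e-08), and PMAIP1 was 1.61-fold lower (−0.69 ± 0.10, edgeR adjusted p = 2.42e-05). The lower level of ZMAT3, −0.54 ± 0.17 (edgeR adjusted p = 0.0122), lost its call without replicate 2 of the 20 µM group (0.0655) or cGAMP replicate 1 (0.0617). That of TIGAR, −0.96 ± 0.37 (edgeR adjusted p = 0.0332), lost it without replicate 1 (0.119) or 2 (0.0760) of the 20 µM group or cGAMP replicate 1 (0.129). The ZMAT3 and TIGAR calls were also lost in every FPKM setting. On log2(FPKM + 0.1) the limma adjusted p was 0.0822 for ZMAT3 and 0.502 for TIGAR.

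Among relatives and regulators of p53, 15 of 16 listed genes were tested, and 3 were higher and 4 lower at 50 µM against untreated cells, with a median log2 change of 0.01, where 66.9% of all genes were called. HIPK2, a kinase that phosphorylates p53, averaged 184 ± 16.2 CPM at 50 µM, 124 ± 16.2 CPM at 20 µM and 71.8 ± 5.73 CPM in untreated cells (SD, n = 3), a log2 change of 1.35 ± 0.10 at 50 µM (edgeR adjusted p = 1.67e-09). MDM4, the MDM2 relative that restrains p53, rose by 0.49 ± 0.07 at 50 µM (edgeR adjusted p = 1.33e-05). Of the DNA damage kinases listed, ATR and CHEK2 fell, by 1.03 and 0.57 on the log2 scale at 50 µM (edgeR adjusted p = 5.73e-05 and 1.02e-04). ATM and CHEK1, named after their values were seen, did not pass at 50 µM (0.154 and −0.036, edgeR adjusted p = 0.155 and 0.741). Both were higher at 20 µM (0.414 and 0.625, edgeR adjusted p = 0.00111 and 1.3e-05). In the whole list, 5 genes were higher and 5 lower at 20 µM (55.1% of all genes called). With cGAMP 3 were higher and 2 lower (23.3%), CHEK2 among the higher ones with a log2 change of 0.52 ± 0.10 (edgeR adjusted p = 0.00116).

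A list of 50 other p53 targets, 45 of them tested, had 24 genes higher and 11 lower at 50 µM, 18 and 6 at 20 µM, and 5 and 7 with cGAMP. The median log2 changes were 0.45, 0.22 and −0.07. The share called was 35 of 45 at 50 µM, where 66.9% of all genes were called. At 20 µM it was 24 of 45 and with cGAMP 12 of 45, near the 55.1% and 23.3% of all genes. KITLG, the stem cell factor gene, averaged 37.1 ± 8.84 CPM at 50 µM, 4.53 ± 0.774 CPM at 20 µM and 2.08 ± 0.340 CPM in untreated cells (SD, n = 3), 17.8-fold higher at 50 µM (edgeR adjusted p = 1.77e-11). GDF15, a stress cytokine of the TGF-beta family, averaged 65.1 ± 13.9 CPM at 50 µM, 14.2 ± 8.06 CPM at 20 µM and 3.95 ± 0.291 CPM in untreated cells, 16.5-fold higher at 50 µM (edgeR adjusted p = 1.71e-09). The lysosomal fucosidase gene FUCA1 and the mitochondrial ferredoxin reductase gene FDXR fell, by 1.38 and 1.11 on the log2 scale at 50 µM (edgeR adjusted p = 2.15e-09 and 1.75e-05). At 20 µM FUCA1 fell by 0.36 (edgeR adjusted p = 0.00374), and the FDXR change was −0.09 (edgeR adjusted p = 0.644).

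Paralogs of the 10 genes are not all p53 targets, and 9 of 10 listed were tested, MDM4 and SESN2 among them, which stand in other lists too. At 50 µM 7 were higher and 1 was lower, with a median log2 change of 1.21; at 20 µM 5 were higher and 1 lower (median 0.36), and with cGAMP 1 was higher and 1 lower (median −0.15). Of all genes, 66.9%, 55.1% and 23.3% were called in these comparisons, with medians of −0.03, 0.00 and −0.05. CDKN1C, which encodes the CDK inhibitor p57, averaged 2.58 ± 0.153 CPM at 50 µM, 2.09 ± 0.527 CPM at 20 µM and 0.581 ± 0.260 CPM in untreated cells (SD, n = 3), a log2 change of 2.15 ± 0.31 at 50 µM (edgeR adjusted p = 7.55e-06). BTG1, the closest relative of BTG2, averaged 433 ± 74.9 CPM at 50 µM, 232 ± 30.2 CPM at 20 µM and 130.4 ± 17.6 CPM in untreated cells, 3.32-fold higher at 50 µM (edgeR adjusted p = 2.10e-09). SESN3 fell by 0.71 ± 0.15 on the log2 scale (edgeR adjusted p = 4.79e-04) where SESN1 rose. CDKN1B, which encodes p27, averaged 33.6 ± 3.16 CPM at 50 µM and 34.9 ± 2.15 CPM in untreated cells, with a log2 change of −0.06 ± 0.09 (95% interval −0.24 to 0.12, edgeR adjusted p = 0.568).

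CDK inhibitors with the cyclins and CDKs they act on made, together with the replication clamp gene PCNA, a list of 16, of which 14 were tested and CDKN2A and CDKN2B had no counts in any library. At 50 µM 3 were higher and 8 lower (median log2 change −0.34), at 20 µM 3 were higher and 2 lower (median 0.08), and with cGAMP 2 were higher and 1 lower (median 0.02), where 66.9%, 55.1% and 23.3% of all genes were called. PCNA, named after its values were seen, is 1 of the lower genes at 50 µM and 1 of the higher ones at 20 µM. CCNA2, the cyclin of S phase and G2, averaged 36.1 ± 6.58 CPM at 50 µM, 73.0 ± 15.3 CPM at 20 µM, 122.6 ± 4.54 CPM with cGAMP and 120.0 ± 3.90 CPM in untreated cells (SD, n = 3). Its log2 change was −1.73 ± 0.14 at 50 µM (edgeR adjusted p = 4.82e-09) and −0.72 ± 0.13 at 20 µM (edgeR adjusted p = 1.60e-04), so it was lowest in the group where CDKN1A was highest. CCNE1, the cyclin of G1 exit, fell by 0.87 ± 0.14 at 50 µM (edgeR adjusted p = 3.51e-05), and the 20 µM change was 0.12 ± 0.13 (edgeR adjusted p = 0.457). CCND1, the cyclin of early G1, was 2.83-fold higher at 50 µM (edgeR adjusted p = 1.67e-08), with 0.07 ± 0.14 at 20 µM (edgeR adjusted p = 0.692).

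The ATF4 and CHOP stress response, which reads amino acid shortage and misfolded protein and shares SESN2 with the p53 target list, had 10 of 12 genes higher at 50 µM and 2 that did not pass in edgeR (median log2 change 1.10), where 32.2% of all genes were higher. At 20 µM 4 were higher and 2 lower (median 0.18), a share near the 55.1% of all genes called, and with cGAMP 2 were higher and 1 lower (median −0.07), against 23.3% of all genes called. ATF3, a transcription factor of stress, averaged 138 ± 44.3 CPM at 50 µM, 51.6 ± 16.3 CPM at 20 µM, 29.9 ± 7.81 CPM with cGAMP and 7.84 ± 1.12 CPM in untreated cells (SD, n = 3). It was 17.6-fold higher at 50 µM (edgeR adjusted p = 5.32e-10), 6.58-fold at 20 µM (edgeR adjusted p = 2.47e-07) and 3.80-fold with cGAMP (edgeR adjusted p = 5.57e-05). DDIT4, an inhibitor of mTORC1, was 4.99-fold higher at 50 µM (edgeR adjusted p = 2.90e-10) and 3.76-fold at 20 µM (edgeR adjusted p = 1.03e-08), and the cGAMP change was a log2 value of 0.30 ± 0.14 (edgeR adjusted p = 0.132). Their part in the changes of the p53 targets was not tested.

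**Figure D4:**
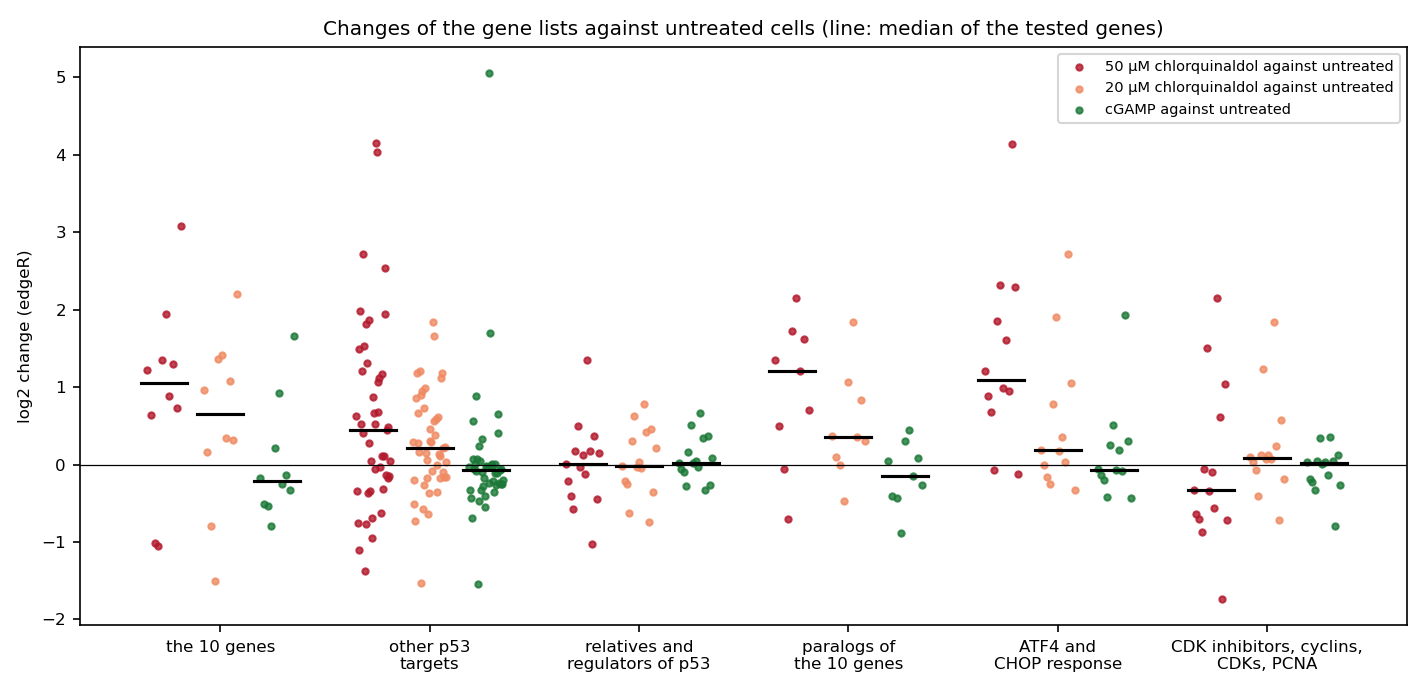
Log2 change (y axis, edgeR) of every tested gene of the 10 p53 targets and 5 related lists at 50 µM chlorquinaldol, 20 µM chlorquinaldol and with cGAMP, each against untreated cells. Points are genes and black lines medians; at 50 µM the median is 1.05 for the 10 genes, 0.45 for other p53 targets, 1.21 for paralogs and −0.34 for CDK inhibitors, cyclins, CDKs and PCNA.

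The genes whose level followed CDKN1A most closely over the 12 libraries were TCAF2, EMP1, ANGPTL4, EMP3 and RNF149, at Pearson correlations of 0.995, 0.993, 0.992, 0.991 and 0.990 of log2 CPM. This is a description over libraries that fall into 4 groups and share their group's treatment. ANGPTL4 averaged 78.5 CPM at 50 µM, 15.7 CPM at 20 µM, 2.93 CPM with cGAMP and 0.528 CPM in untreated cells. EMP1 averaged 69.3, 38.1, 9.503 and 3.58 CPM in the same 4 groups, and TCAF2 58.9, 33.3, 12.9 and 7.89 CPM. All 5 shared the order of CDKN1A, 50 µM first, then 20 µM, cGAMP and untreated, which their choice by correlation largely gave in advance. Of the other 9 members MDM2 alone had this order of means. Its differences between cGAMP and untreated cells (edgeR adjusted p = 0.0566) and between 20 µM and cGAMP (edgeR adjusted p = 0.147) did not pass.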

How the data were processed

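Gene-level tables of 12 THP-1 RNA-seq libraries were used, 1 of estimated counts and 1 of FPKM. The authors made both with RSEM against GRCh38, per the submitters' processing notes, and sequenced on a BGI DNBSEQ platform, per the labels. The deposited estimated counts are not scaled, and 42.138% of values above 0 were not whole, so they were rounded. The deposited FPKM are scaled by the authors per transcript length and depth. DESeq2 1.26.0 is named too, per the submitters' processing notes, but the authors' own tests are not used here. Strand of counting, annotation release and RSEM version are not given in the sources used here. Per-sample columns left out numbered 0. Of 62914 entries, 326 have no Ensembl gene ID (0.182 to 0.290% of counts) and were left out.

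Genes were kept by filterByExpr (minimum count 10). Counts were scaled by TMM (factors 0.905 to 1.06) and fitted with edgeR 4.0.16 in R 4.3.3 as 1 quasi-likelihood model of 12 libraries and 4 groups, with Benjamini-Hochberg adjustment over 16628 genes. The script was tested on simulated data. CPM are TMM-scaled, so all changes are relative to the bulk of genes. The SE is the log2 change over the square root of F. Intervals are 95% and depth limits the scarce genes most. An exact test of 1 gene with 3 libraries a group cannot go below 0.1, and the model borrows spread from other genes. No pair of replicates agreed within sampling noise. Gene positions are from GENCODE 29.

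The 10 genes, the lists and the rules were chosen with earlier results of these data known. Beyond the 10, the text names MDM4 and CDKN1B, and of each list the 2 largest increases and decreases called at 50 µM against untreated cells; 1 further gene of the lists and the naming rule is not reported here. Genes like CDKN1A were the 5 of at least 5 CPM with the highest correlation (prior count 2). Alternative settings were other scaling (upper-quartile or RLE), other filters (none, or 5 CPM and more in 3 libraries), DESeq2 1.42.0, limma 3.58.1 on log2(FPKM + 0.1), on log2(FPKM + 1) and on unfiltered FPKM, a fit of just the groups in question, a replicate block, an adjusted p below 0.01, and leaving out each library in turn.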

Additional observations from a re-analysis of the deposited data

How the results depend on the processing

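The 10 genes gave 60 log2 changes in 6 comparisons, and 38 of them kept direction and call in every alternative run for them. Of 1014 alternative values, 918 kept both, 73 lost the call, 20 gained it and 3 turned round. Those 3 were TIGAR with cGAMP against untreated cells, at 0.078 on log2(FPKM + 0.1) and 0.022 on log2(FPKM + 1), with and without a filter. The CDKN1A call held under every alternative in all 6 comparisons. At 50 µM against 20 µM, 3 of the 10 genes were called on FPKM under each of the 3 FPKM settings. The number of all genes called with cGAMP against untreated cells was 2203 at an adjusted p below 0.01 and 2038 on FPKM with no filter, against 3875. The median of all genes at 50 µM against untreated cells was −0.16 on log2(FPKM + 0.1), against −0.03 on counts, and changes on FPKM are relative to it. The cause of these differences was not tested.

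Over all genes, deviations of same-numbered replicates from their group means correlated at −0.113 to 0.0671. Such correlations cannot tell whether same-numbered libraries shared a culture or batch, which the labels do not state. Single genes could still be ordered by number: BTG2 fell from replicate 1 to replicate 3 in both drug groups and rose with cGAMP and in untreated cells. With the replicate block, 10 genes were called at 50 µM and 8 at 20 µM against untreated cells, where BBC3 was lost (0.32, adjusted p = 0.0599), and 7 at 50 µM against 20 µM, where SESN1 was lost (0.23, adjusted p = 0.0556). With a filter of 5 CPM in 3 libraries TIGAR was not tested. The low counts of TIGAR, ZMAT3 and TP53INP1 limit what can be seen for them.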

Other observations

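A few genes of the lists were picked after their values were seen. TRIM22, an interferon-induced antiviral gene that is also listed as a p53 target, averaged 480.2 ± 24.6 CPM with cGAMP and 14.4 ± 1.22 CPM in untreated cells (SD, n = 3), 33.2-fold higher (edgeR adjusted p = 8.87e-15). It was 5.83-fold higher at 50 µM than in untreated cells (edgeR adjusted p = 9.01e-12) and 3.17-fold at 20 µM (edgeR adjusted p = 6.00e-09). FAS, the death receptor gene, averaged 2.54 ± 0.445 CPM at 50 µM, 2.39 ± 0.470 CPM at 20 µM, 3.95 ± 0.314 CPM with cGAMP and 1.21 ± 0.333 CPM in untreated cells, 3.26-fold higher with cGAMP (edgeR adjusted p = 2.73e-05). Both were highest with cGAMP, as PMAIP1 was.

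The p53 relatives TP73 and TP63 were detected as well. TP73 averaged 16.9 ± 3.78 CPM at 50 µM, 31.4 ± 3.85 CPM at 20 µM, 19.0 ± 1.96 CPM with cGAMP and 22.97 ± 2.00 CPM in untreated cells. It was lower at 50 µM (log2 change −0.44 ± 0.14, edgeR adjusted p = 0.00974) and higher at 20 µM (0.45 ± 0.13, edgeR adjusted p = 0.00833) than in untreated cells. TP63 averaged 3.21 ± 0.466 CPM at 50 µM, 2.53 ± 0.629 CPM at 20 µM, 6.72 ± 0.173 CPM with cGAMP and 4.24 ± 0.520 CPM in untreated cells, and was higher with cGAMP (0.66 ± 0.16, edgeR adjusted p = 0.00713) and lower at 20 µM (−0.74 ± 0.18, edgeR adjusted p = 0.00239) than in untreated cells. TP73 was highest at 20 µM, as TP53INP1 was, but at 50 µM TP73 was below untreated cells and TP53INP1 above them. Other listed genes, CHEK1 and CCNE2 among them, were also highest at 20 µM, and a link between TP73 and TP53INP1 was not tested.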
